A study of Homo sapiens with 6 samples.

Results

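The genes described here are 10 negative feedback regulators of mitogen-activated protein (MAP) kinase signalling in a human oral squamous cell carcinoma line exposed to hypoxia: the dual-specificity phosphatases DUSP1, DUSP4, DUSP5, DUSP6 and DUSP10, the Sprouty genes SPRY1, SPRY2 and SPRY4, and the Sprouty-related genes SPRED1 and SPRED2. They were chosen by name from the 21776 genes of the deposited count table, with earlier results of these data known. All 10 were present, and all 10 passed the filter on low counts. The 6 RNA-seq libraries were labelled as wild-type SCC25 cells kept for 12 h either under hypoxia (1% O2, 5% CO2, the balance N2) or under normoxia (5% CO2 in air), with 3 libraries per condition. Cells of both conditions were grown in DMEM/F12 with fetal bovine serum, a medium that supplies growth factors. Total counts were 30186813, 36076088 and 32272716 reads in the hypoxic libraries and 37278703, 29637189 and 29981208 reads in the normoxic libraries, so depth did not separate the conditions. The sources do not say whether the libraries of a condition came from separate cultures, and p-values then measure only the spread between these samples, which may be technical. The study used SCC25 as a model of head and neck squamous cell carcinoma, and all libraries carry the label of this single line. The paper, however, names another line of the same tumour type for this experiment.

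MAP kinase cascades carry signals from receptors to the nucleus through RAS, RAF and MEK to the ERK kinases, and through parallel branches to p38 and JNK. The cascade limits itself: active ERK induces genes whose products shut the signal down. Dual-specificity MAP kinase phosphatases act at the bottom by removing the phosphates from the kinases, whereas Sprouty and SPRED proteins act higher up, between the receptor and RAF. Because several of these genes are induced by ERK itself, their transcripts are widely read as markers of ERK output, and in squamous carcinoma cells the usual input is the epidermal growth factor receptor (EGFR).

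The conditions were first checked against genes of known response. All 15 listed hypoxia response genes rose under hypoxia, compared with 39.2% of the 14255 genes tested. Among them were VEGFA, the angiogenic growth factor (log2-fold change = 2.80 ± 0.070 SE, adjusted p = 4.25e-15 by edgeR), CA9, the membrane carbonic anhydrase (2.71 ± 0.21 SE), and NDRG1, a stress-responsive gene (5.40 ± 0.30 SE). Normoxia library 3 stood apart from the other normoxic libraries for some of these genes. Its NDRG1 level was 408.9 CPM (counts scaled to the library total adjusted by TMM normalization), against 163.3 and 140.4 CPM in the other normoxic libraries, and the hypoxic libraries held 9007 to 10638 CPM. Its CA9 level was 67.7 CPM, against 32.2 and 27.3 CPM in the other normoxic libraries. Results for the feedback genes that change without this library are therefore given both ways.

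Of 8 squamous epithelial markers, 7 were expressed in these libraries. By FPKM (fragments scaled to gene length and to library total) EPCAM was the most abundant of them. The keratin gene KRT14 had at most 1 count in any library. The summed level of the squamous list was 425.5 to 439.2 FPKM under hypoxia and 460.3 to 474.6 FPKM under normoxia. Its members moved both ways, with CDH1 (log2-fold change = 1.35), DSG3 (1.35) and KRT17 (1.06) higher under hypoxia. EPCAM (-0.35), SFN (-0.80) and KRT5 (-0.18) were lower, and TP63 did not pass the test. TP63 was at 72.3, 65.7 and 66.8 CPM under hypoxia and at 53.3, 52.4 and 82.5 CPM in normoxia libraries 1 to 3. Normoxia library 3 thus lay above all other libraries for TP63. The leukocyte genes PTPRC, CD3E and CD79A had 3 or fewer counts in every library, and the leukocyte list was carried by CD68. The 5 fibroblast markers together reached 2.95 to 3.95 FPKM under hypoxia and 0.516 to 0.959 FPKM under normoxia, nearly all of it COL1A1. COL1A1 was higher under hypoxia (log2-fold change = 2.26 ± 0.16 SE, adjusted p = 1.02e-09 by edgeR). LUM had 27, 9 and 8 counts under hypoxia and 1, 1 and 2 under normoxia, too few to be tested. PDGFRB had 24, 19 and 20 counts under hypoxia and 13, 7 and 11 under normoxia (adjusted p = 0.0507 by edgeR). COL1A2 and DCN overlapped between the conditions, and DCN had at most 4 counts in any library. The 4 endothelial markers together reached 0.255 to 0.340 FPKM under hypoxia and 0.0659 to 0.178 FPKM under normoxia. CDH5 was the most abundant of them and higher under hypoxia (log2-fold change = 1.14, adjusted p = 0.025 by edgeR), VWF and KDR had no counts in the normoxic libraries, and PECAM1 had at most 2 there. The hypoxic libraries also held reads on more genes (18766 to 18996) than the normoxic libraries (17128 to 17505). The part of these differences in the results below was not tested, and in bulk RNA fewer cells of a kind and less RNA per cell cannot be told apart.

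Upstream sequence was available for 8 of the 10 genes (13 windows, RefSeq, GRCh38.p14), and it is shown for DUSP1 and SPRY4 because these are the genes with a single window that moved beyond a log2-fold change of 1, in opposite directions. Each sequence holds the 250 bases before the annotated start of the gene, 5′ to 3′ on the strand of the gene. Capitals mark matches, on either strand, to ACGTG or GCGTG (core letters of the hypoxia response element), TGACGTCA (the cyclic AMP response element), TGANTCA (the AP-1 element), GGGCGG (the GC box) and TATAAA (the TATA box). The windows lie at chr5:172771196-172771445, minus strand, for DUSP1 and at chr5:142324248-142324497, minus strand, for SPRY4.
DUSP1: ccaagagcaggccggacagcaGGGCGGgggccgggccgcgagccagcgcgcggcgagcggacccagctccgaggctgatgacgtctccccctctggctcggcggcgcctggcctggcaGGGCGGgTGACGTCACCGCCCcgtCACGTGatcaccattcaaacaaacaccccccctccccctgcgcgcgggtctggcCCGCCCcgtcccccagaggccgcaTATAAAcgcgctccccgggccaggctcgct
SPRY4: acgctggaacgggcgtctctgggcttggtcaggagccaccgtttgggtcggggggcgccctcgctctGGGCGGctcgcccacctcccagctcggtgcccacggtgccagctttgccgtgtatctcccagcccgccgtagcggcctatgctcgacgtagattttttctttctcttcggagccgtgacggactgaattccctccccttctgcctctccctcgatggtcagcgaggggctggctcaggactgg

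Counting each strand, the DUSP1 window held 9 matches and the SPRY4 window held 1, a GC box. In DUSP1, ACGTG was matched on both strands, overlapping within CACGTG (bases -108 to -103 from the start), TGACGTCA, which reads the same on both strands and counts on each, lay at bases -125 to -118, and TATAAA lay at bases -30 to -25. Among 35116 windows of the same length, ACGTG was present in 18.5%, GCGTG in 32.2%, TGACGTCA in 1.65%, TGANTCA in 6.57%, GGGCGG in 42.6% and TATAAA in 10.7%. Of the genes with a window, DUSP1 alone held ACGTG and alone held TGACGTCA, whereas GCGTG was found in windows of DUSP6, DUSP10, SPRED2 and SPRY1. GGGCGG was found in windows of 6 genes, TATAAA in windows of DUSP1 and SPRED2, and TGANTCA in no window. Counted by window, as in the percentages above, ACGTG was present in 1 of the 13 windows and GCGTG in 4. TGACGTCA was present in 1, GGGCGG in 7 and TATAAA in 2 of the 13. These are matches of letters and not measured binding sites.

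Which of the feedback genes responded to hypoxia, and in which direction, was then examined. DUSP1 and SPRY1 rose strongly, DUSP4, SPRY2 and SPRY4 fell strongly, DUSP6 fell and SPRED1 rose slightly, and DUSP5, DUSP10 and SPRED2 did not pass the test. Thus, 7 of the 10 genes were differentially expressed by edgeR at an adjusted p under 0.05, 3 higher and 4 lower. Hypoxia changed most of the transcriptome, and 77.8% of the 14255 genes tested passed the same test (39.2% higher and 38.5% lower), so this count lies near the background. With a log2-fold change beyond 1 as well, 5 of the 10 genes passed, 2 higher and 3 lower, compared with 30.4% of all genes tested (19.9% higher and 10.5% lower). Because the 10 genes were chosen with earlier results of these data known, this comparison is only descriptive. The CPM of the conditions did not overlap for 7 of the 10 genes, compared with 80.5% of all genes tested. Over the 10 genes the log2-fold changes had a median of -0.14, and a median of 0.76 once their signs were dropped, whereas the 14255 genes had medians of 0.02 and 0.63.

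**Figure D1:**
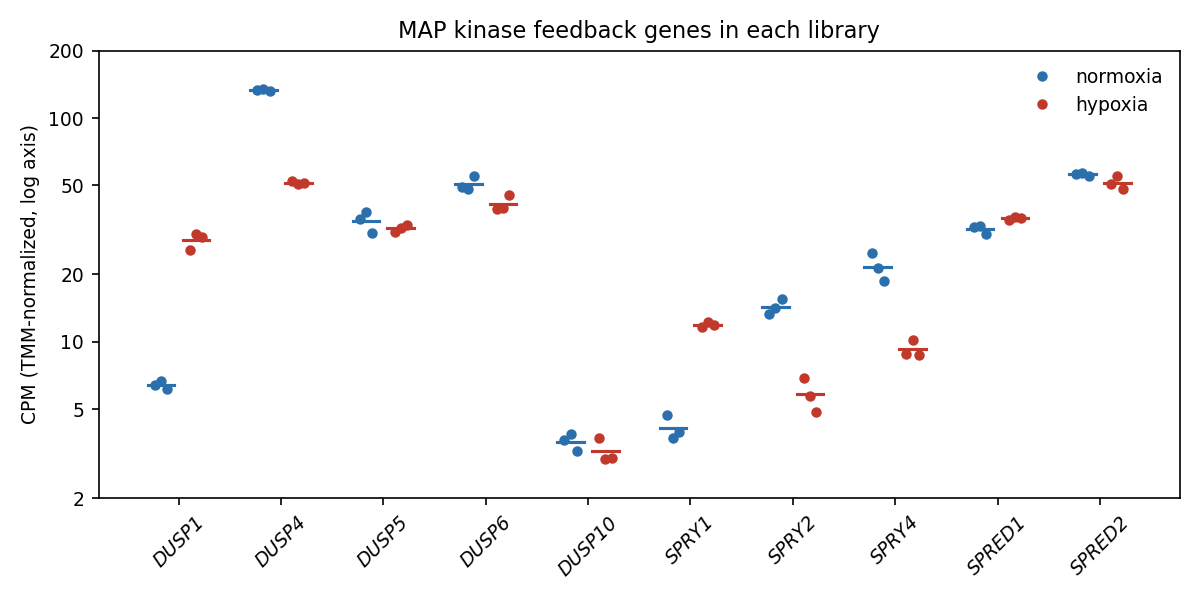
Level of each of the 10 feedback genes in each of the 6 libraries, in CPM on a log axis (points, 3 libraries per condition; lines, condition means). DUSP1 and SPRY1 sit higher in all hypoxic libraries, DUSP4, SPRY2 and SPRY4 sit lower in all of them, and the points of DUSP5, DUSP10 and SPRED2 overlap between the conditions.

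DUSP1 encodes MKP-1, an inducible nuclear phosphatase that acts on p38, JNK and ERK, and it showed the largest rise of the 10 genes. Its levels were 25.7, 30.4 and 29.3 CPM in hypoxia libraries 1 to 3 and 6.40, 6.68 and 6.19 CPM in normoxia libraries 1 to 3. Every hypoxic library lay far above every normoxic library, and the normoxic values lay close together. DUSP1 was 4.44-fold higher under hypoxia (log2-fold change = 2.15 ± 0.10 SE, 95% interval 1.94 to 2.36, adjusted p = 3.57e-12 by edgeR), and it ranked 459 of the 14255 genes by p-value.

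DUSP4 encodes MKP-2, a nuclear phosphatase closely related to DUSP1, and it moved the opposite way. Its levels were 52.1, 50.5 and 51.3 CPM in the hypoxic libraries and 133.3, 134.5 and 132.6 CPM in the normoxic libraries. Replicates differed very little, with a coefficient of variation of 1.58% under hypoxia and 0.727% under normoxia. DUSP4 was 2.60-fold lower under hypoxia (log2-fold change = -1.38 ± 0.052 SE, 95% interval -1.49 to -1.27, adjusted p = 3.27e-13 by edgeR), rank 169 by p-value.

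DUSP6 encodes MKP-3, a cytoplasmic phosphatase specific for ERK and a standard transcript marker of ERK activity. Its levels were 39.2, 39.6 and 45.2 CPM under hypoxia and 49.0, 48.1 and 55.3 CPM under normoxia. The conditions did not overlap, but the gap between them was smaller than the spread within either of them. The log2-fold change was -0.30 ± 0.073 SE (95% interval -0.45 to -0.14, adjusted p = 0.0014 by edgeR). It no longer passed when the change was tested against 1.2-fold instead of 0 (adjusted p = 0.195 by edgeR's glmTreat). The exons of DUSP6 share 1875 bases with AC024909.2, a gene on the opposite strand that the count table does not list, and the sources used here do not say whether counting used the strand.

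DUSP5 encodes a nuclear ERK-specific phosphatase, and its level was 30.9, 32.4 and 33.3 CPM under hypoxia and 35.5, 38.1 and 30.8 CPM under normoxia. Normoxia library 3 lay below all hypoxic libraries and the other normoxic libraries lay above them. The log2-fold change was -0.11 ± 0.079 SE (95% interval -0.28 to 0.06, adjusted p = 0.209 by edgeR), and leaving out a library gave -0.21 (without normoxia library 3, adjusted p = 0.0125 by edgeR) to -0.052 (without normoxia library 2, adjusted p = 0.589). With at least 10 counts in every library it was -0.033 (adjusted p = 0.706). That setting shifted the log2-fold changes of the 12665 genes it shared with the main fit by a median of 0.077. DUSP10 encodes MKP-5, which acts mainly on p38 and JNK and not on ERK. It was the least abundant of the 10 genes, at 3.73, 2.98 and 3.02 CPM under hypoxia and 3.63, 3.88 and 3.25 CPM under normoxia. The values overlapped, and the log2-fold change was -0.15 ± 0.19 SE (95% interval -0.54 to 0.25, adjusted p = 0.484 by edgeR). Leaving out a library gave -0.26 (without hypoxia library 1) to -0.091 (without hypoxia library 2), and a minimum of 10 counts per library gave -0.069. Without normoxia library 3 the log2-fold change of DUSP10 was -0.23 (adjusted p = 0.319 by edgeR). None of these fits passed.

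The Sprouty genes also moved in both directions. Sprouty proteins are induced by growth factors and block the passage of the signal from receptor tyrosine kinases to RAS and RAF. SPRY1 was at 11.6, 12.3 and 11.8 CPM under hypoxia and at 4.73, 3.70 and 3.96 CPM under normoxia. All hypoxic libraries exceeded all normoxic libraries, and the rise was 2.87-fold (log2-fold change = 1.52 ± 0.13 SE, 95% interval 1.24 to 1.80, adjusted p = 1.02e-08 by edgeR). SPRY2, which also binds the ubiquitin ligase CBL, was at 6.88, 5.73 and 4.87 CPM under hypoxia and at 13.3, 14.2 and 15.5 CPM under normoxia. Here all hypoxic libraries were lower, by 2.46-fold (log2-fold change = -1.30 ± 0.13 SE, 95% interval -1.58 to -1.02, adjusted p = 8.25e-08 by edgeR). SPRY4 was at 8.81, 10.2 and 8.75 CPM under hypoxia and at 25.1, 21.3 and 18.6 CPM under normoxia. It too was lower in all hypoxic libraries, by 2.34-fold (log2-fold change = -1.23 ± 0.12 SE, 95% interval -1.47 to -0.98, adjusted p = 3.27e-08 by edgeR).

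The SPRED genes changed little. SPRED proteins sit at the membrane and recruit neurofibromin, the RAS inactivator encoded by NF1. SPRED1 was at 34.9, 36.2 and 35.7 CPM under hypoxia and at 32.7, 32.9 and 30.3 CPM under normoxia. The conditions did not overlap and the rise was 1.11-fold (log2-fold change = 0.16 ± 0.067 SE, adjusted p = 0.0445 by edgeR), but it failed the test when any of the 6 libraries was left out, with log2-fold changes of 0.10 (without normoxia library 3, adjusted p = 0.204) to 0.17. A minimum of 10 counts per library gave 0.23 (adjusted p = 0.0044), under the median shift of 0.077 that this setting brought to all shared genes. SPRED2 was at 50.8, 55.1 and 48.4 CPM under hypoxia and at 56.5, 56.9 and 54.9 CPM under normoxia. Hypoxia library 2 lay within the normoxic range and the other hypoxic libraries lay below it. Its log2-fold change was -0.13 ± 0.062 SE (95% interval -0.26 to 0.01, adjusted p = 0.0755 by edgeR), and it passed without hypoxia library 2 (-0.18, adjusted p = 0.0193) and without normoxia library 3 (-0.16, adjusted p = 0.0317). It was closer to 0 without hypoxia library 3 (-0.089, adjusted p = 0.267) and when every library had to hold 10 counts (-0.048, adjusted p = 0.488).

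Levels were next compared between the genes with FPKM, which allow for gene length. Under normoxia DUSP4 was the most abundant of the 10 transcripts (18.1 ± 0.221 FPKM, SD, n = 3). It was followed by DUSP5 (13.8 ± 1.37 FPKM) and DUSP6 (13.8 ± 1.15 FPKM), which overlapped, and then by SPRED2 (8.85 ± 0.183 FPKM). SPRY2 (4.07 ± 0.312 FPKM), SPRED1 (3.54 ± 0.160 FPKM), DUSP1 (3.14 ± 0.0903 FPKM) and SPRY4 (2.98 ± 0.474 FPKM) came after it, and of these only DUSP1 and SPRY4 overlapped with their neighbour in the order. SPRY1 (1.16 ± 0.168 FPKM) and DUSP10 (0.423 ± 0.0342 FPKM) were lowest.

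Under hypoxia the order changed at both ends of the DUSP and Sprouty groups. DUSP1 moved from the seventh place to the first (14.4 ± 1.36 FPKM), where it overlapped with DUSP5 (13.2 ± 0.501 FPKM), and DUSP6 came next (11.6 ± 0.852 FPKM). DUSP4 fell from the first place to the fifth (7.17 ± 0.0811 FPKM), behind SPRED2 (8.39 ± 0.666 FPKM). SPRED1 (4.07 ± 0.121 FPKM) and SPRY1 (3.44 ± 0.143 FPKM) then came before SPRY2 (1.71 ± 0.297 FPKM) and SPRY4 (1.31 ± 0.133 FPKM), which overlapped with each other. DUSP10 remained the lowest (0.396 ± 0.0499 FPKM). The test on log2(FPKM + 1) with limma called 7 of the 9 genes whose mean reached 1 FPKM, compared with 80.9% of all genes tested on that scale.

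The summed FPKM of the DUSP genes was slightly lower under hypoxia, and its make-up differed. The 5 DUSP genes together reached 44.2, 47.8 and 48.2 FPKM under hypoxia and 49.7, 49.2 and 48.7 FPKM under normoxia, close together but without overlap. The sum depended on the measure: in CPM, which are not scaled to length and were summed after the values were seen, it was 151.7, 155.9 and 162.2 under hypoxia and 227.8, 231.2 and 228.1 under normoxia. Within the summed FPKM, DUSP1 made up 30.7% ± 1.70 under hypoxia and 6.37% ± 0.145 under normoxia (SD, n = 3 per condition, two-sided exact permutation p = 0.1). DUSP4 made up 15.4% ± 0.916 under hypoxia and 36.7% ± 0.319 under normoxia (n = 3 per condition, exact permutation p = 0.1). For 3 libraries against 3 a p of 0.1 is the smallest this test can give, and it was reached by every share whose conditions did not overlap. The share of DUSP5 was 28.3% ± 0.280 under hypoxia and 28.0% ± 2.60 under normoxia (n = 3 per condition, exact permutation p = 1), and that of DUSP6 was 24.8% ± 1.26 and 28.0% ± 2.54 (exact permutation p = 0.2), a difference of -3.25 percentage points with all libraries and -1.82 without normoxia library 3. The shares depended on the measure. In shares of counts, which are not scaled to length, DUSP1 made up 18.2% ± 1.29 under hypoxia and 2.80% ± 0.0876 under normoxia, and DUSP4 made up 32.8% ± 1.42 and 58.3% ± 0.202 and remained the largest part in both conditions. In the same shares DUSP5 made up 20.6% ± 0.195 under hypoxia and 15.2% ± 1.53 under normoxia and DUSP6 made up 26.4% ± 1.33 and 22.2% ± 1.82 (n = 3 per condition, exact permutation p = 0.1 for each). A share also depends on the other genes of the sum. The mean levels of these genes were lower under hypoxia, at 32.2 against 34.8 CPM for DUSP5 and 41.3 against 50.8 CPM for DUSP6.

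**Figure D2:**
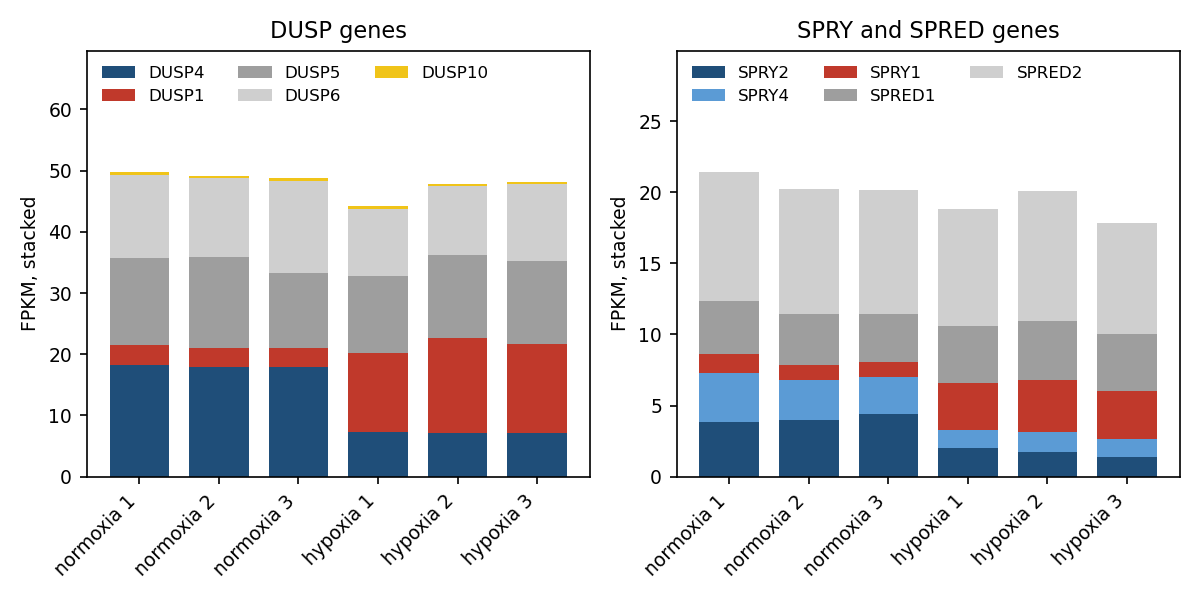
FPKM of the 5 DUSP genes (left) and of the 3 SPRY and 2 SPRED genes (right), stacked for each of the 6 libraries from 0. The bars of the DUSP genes have similar heights in both conditions (44.2 to 49.7 FPKM), while the DUSP1 segment widens and the DUSP4 segment narrows in every hypoxic library.

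The SPRY and SPRED genes together reached 18.8, 20.1 and 17.9 FPKM under hypoxia and 21.4, 20.2 and 20.1 FPKM under normoxia. Their composition shifted too. SPRY1 made up 18.2% ± 0.618 of the sum under hypoxia and 5.60% ± 0.629 under normoxia, SPRY2 made up 9.03% ± 1.46 and 19.8% ± 2.04, and SPRY4 made up 6.93% ± 0.344 and 14.4% ± 1.81 (n = 3 per condition, exact permutation p = 0.1 for each). SPRED1 made up 21.5% ± 0.916 and 17.2% ± 0.486 (exact permutation p = 0.1), in a sum that was itself lower on average under hypoxia, while its own level rose 1.11-fold. SPRED2 remained the largest part, at 44.3% ± 0.924 under hypoxia and 43.0% ± 0.640 under normoxia (exact permutation p = 0.1), a difference of 1.27 percentage points that was 0.740 without hypoxia library 2. In shares of counts SPRY1 made up 10.5% ± 0.293 under hypoxia and 3.22% ± 0.351 under normoxia, and SPRY2 made up 5.11% ± 0.867 and 11.2% ± 1.29. The shares of counts of SPRED2 overlapped between the conditions (exact permutation p = 0.2).

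The contrast within each family can be read from ratios in single libraries, with the pairs of genes chosen after their values were seen. DUSP4 over DUSP1 in FPKM was 0.562, 0.460 and 0.484 in the hypoxic libraries and 5.77, 5.58 and 5.93 in the normoxic libraries. SPRY2 over SPRY1 was 0.601, 0.473 and 0.418 under hypoxia and 2.85, 3.89 and 3.99 under normoxia. SPRY4 over SPRY1 was 0.372, 0.407 and 0.364 under hypoxia and 2.61, 2.82 and 2.31 under normoxia. Each of the 3 ratios lay below 1 in every hypoxic library and above 1 in every normoxic library.

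Other inhibitors of the cascade were then examined. Of 5 further MAP kinase phosphatase genes, DUSP2 was not analysed here and the other 4 passed the test, as did 77.8% of all genes tested. DUSP7, a cytoplasmic ERK phosphatase related to DUSP6, fell from 65.3 ± 2.08 to 30.9 ± 1.81 CPM (log2-fold change = -1.08 ± 0.064 SE, adjusted p = 6.96e-11 by edgeR). DUSP8, which acts on JNK and p38, rose from 4.71 ± 0.868 to 10.2 ± 0.757 CPM (1.11 ± 0.15 SE). DUSP16, another JNK and p38 phosphatase, rose slightly (0.20 ± 0.070 SE). DUSP9, an ERK phosphatase, rose by 2.50 ± 0.52 on the log2 scale, but from very low levels, with 10, 4 and 2 counts in the normoxic libraries and 22, 52 and 23 in the hypoxic libraries.

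Of 9 further inhibitors that act above ERK, SPRY3 was not analysed here and the other 8 passed, 5 higher and 3 lower, compared with 39.2% and 38.5% of all genes tested. ERRFI1, which binds EGFR and inhibits its kinase, was the most abundant of those that moved beyond a log2-fold change of 1. Its levels were 225.4, 258.9 and 258.0 CPM under hypoxia and 82.1, 84.7 and 94.4 CPM under normoxia, without overlap, a 2.84-fold rise (log2-fold change = 1.51 ± 0.067 SE, adjusted p = 1.99e-12 by edgeR). SPRED3 rose (1.24 ± 0.19 SE), as did the RAS inactivator NF1 (0.42 ± 0.056 SE), IL17RD, an inhibitor of fibroblast growth factor signalling (0.41 ± 0.097 SE), and the ubiquitin ligase gene CBL (0.24 ± 0.051 SE). PEBP1, an inhibitor of the cascade between RAS and MEK, fell (-0.45 ± 0.055 SE), as did RASA1, a RAS GTPase-activating protein (-0.21 ± 0.058 SE). LRIG1, which promotes degradation of EGFR, also fell (-1.53 ± 0.37 SE), at only 10 to 53 counts per library.

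**Figure D3:**
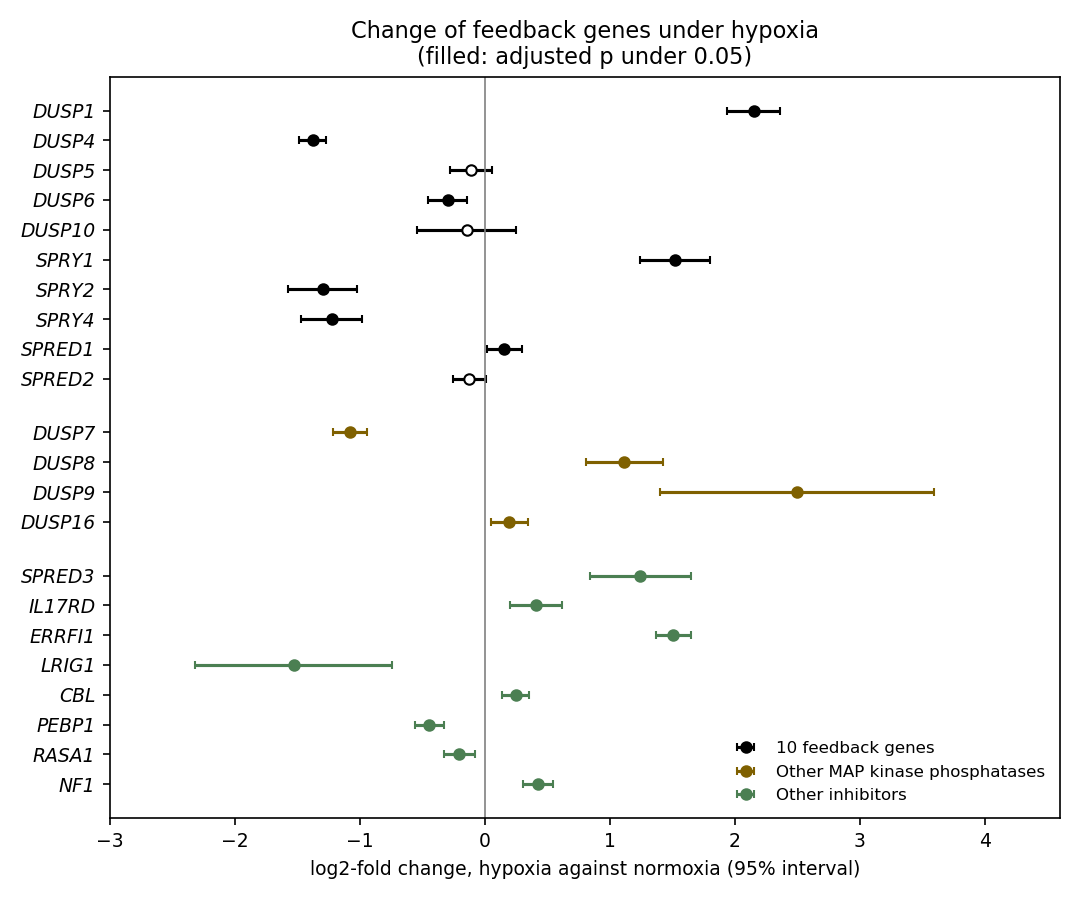
Log2-fold change of hypoxia against normoxia with its 95% interval (x axis) for the 10 feedback genes, 4 other MAP kinase phosphatases and 8 other inhibitors (filled circles, adjusted p under 0.05 by edgeR). DUSP1 at 2.15 and DUSP4 at -1.38 mark the ends of the 10 genes, and the intervals of DUSP5, DUSP10 and SPRED2 include 0.

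The kinases and adaptors of the ERK cascade moved in both directions. Of 14 genes, 7 rose, 6 fell and 1 did not pass, a split close to that of all genes tested (39.2% higher, 38.5% lower). Their log2-fold changes had a median of 0.064, and of 0.56 once their signs were dropped. The largest changes were in KSR1, a scaffold for RAF and MEK (1.24 ± 0.16 SE), MAPK3, an ERK kinase gene (0.79 ± 0.069 SE), PTPN11, the phosphatase SHP2 (-0.75 ± 0.049 SE), and SOS2, a RAS exchange factor (0.73 ± 0.098 SE). Of 9 genes often used as readouts of ERK output, 7 fell, 1 rose and 1 did not pass, with a median log2-fold change of -1.05, compared with 38.5% lower and 39.2% higher among all genes tested. In the same list, 5 of the 9 fell beyond a log2-fold change of 1, compared with 10.5% of all genes tested. The difference between these lists was not tested. Both lists were chosen with earlier results of these data known, so their shares are only descriptive. MYC fell from 250.3, 255.7 and 260.5 CPM in the normoxic libraries to 42.8, 28.2 and 33.6 CPM in the hypoxic libraries (log2-fold change = -2.88 ± 0.10 SE, adjusted p = 1.30e-13 by edgeR). CCND1, which encodes cyclin D1, fell by 2.22 ± 0.071 SE, the AP-1 gene FOSL1 fell by 1.70 ± 0.077 SE and PHLDA1 fell by 1.13 ± 0.049 SE, all on the log2 scale.

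Immediate-early genes are induced by serum and stress within minutes. Of 14 listed genes 12 were tested, of which 8 rose, 1 fell and 3 did not pass, with a median log2-fold change of 0.50, compared with 39.2% higher and 38.5% lower among all genes tested. This list too was chosen with earlier results of these data known. FOS was at 14.5, 27.5 and 25.6 CPM under hypoxia and at 1.88, 1.92 and 1.99 CPM under normoxia (log2-fold change = 3.55 ± 0.21 SE, adjusted p = 7.26e-11 by edgeR). JUN (1.90 ± 0.089 SE), JUNB (1.57 ± 0.072 SE) and BTG2 (1.56 ± 0.16 SE) rose as well. EGR1, a direct transcriptional target of ERK signalling that is named here after its values were seen, had a log2-fold change of -0.05 ± 0.19 SE (adjusted p = 0.812 by edgeR). Its levels were 11.4, 25.3 and 21.9 CPM in hypoxia libraries 1 to 3 and 18.7, 18.4 and 24.0 CPM in normoxia libraries 1 to 3. Hypoxia library 1 thus lay below all other libraries. Of 14 genes of the p38 and JNK branches, 4 rose, 6 fell and 4 did not pass, where 77.8% of all genes tested passed. The largest changes at a mean of at least 1 log2 CPM were in MAP2K3, a p38 activator (-1.51 ± 0.072 SE), MAPK11, which encodes p38β (1.07 ± 0.12 SE), and the JNK genes MAPK9 (-0.66 ± 0.065 SE) and MAPK8 (-0.48 ± 0.097 SE).

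**Figure D4:**
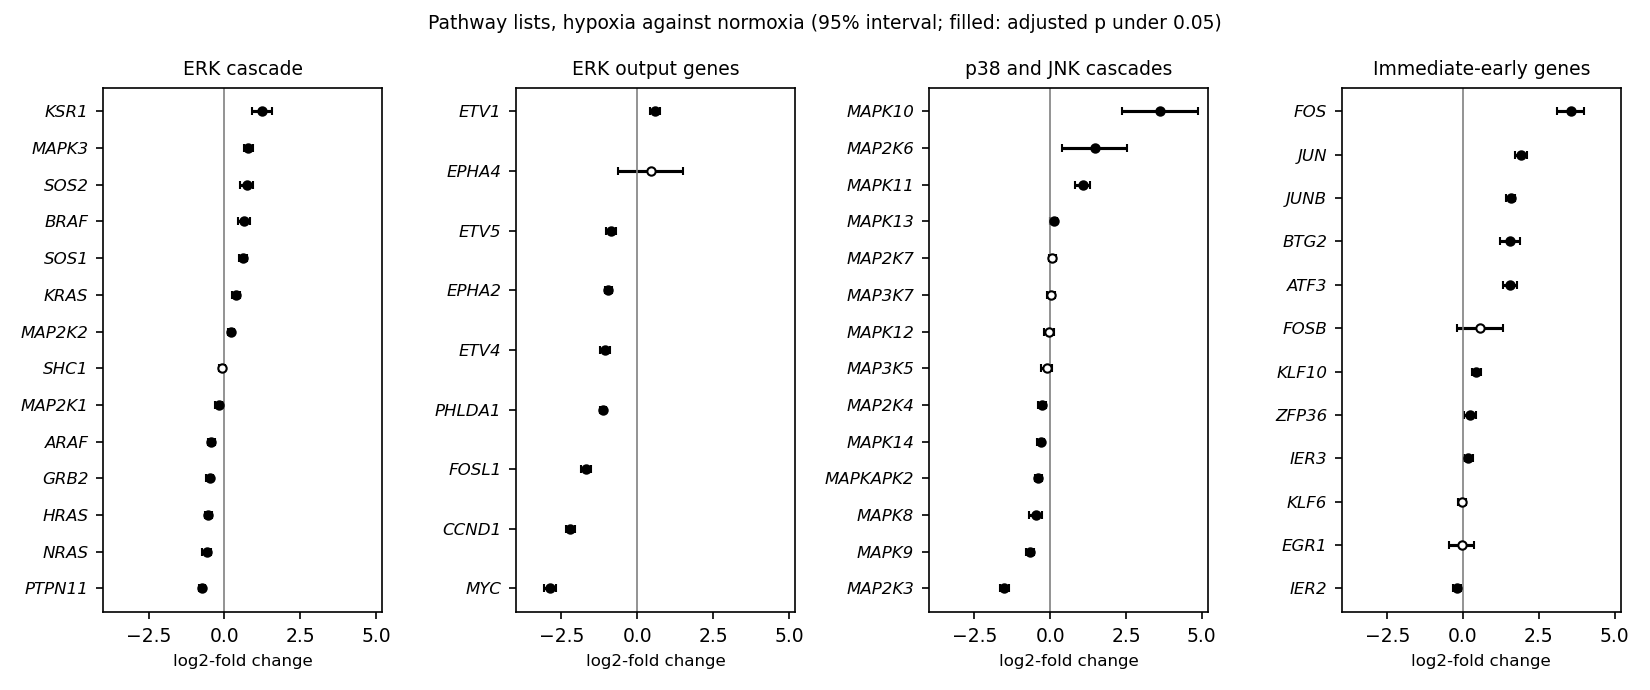
Log2-fold change of hypoxia against normoxia with its 95% interval for each of 14 genes of the ERK cascade and each tested gene of the ERK output genes, the p38 and JNK cascades and the immediate-early genes, ordered within each panel (filled circles, adjusted p under 0.05 by edgeR). Most ERK output genes lie left of 0, down to MYC at -2.88, and most immediate-early genes lie right of 0, up to FOS at 3.55.

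Finally, the genes whose pattern over the 6 libraries was most like that of DUSP1 and DUSP4 were listed by the root mean square difference of centred log2 CPM, among 9604 genes with a mean log2 CPM of at least 3. Nearest to DUSP1 were PFKFB3, a regulator of glycolysis (difference 0.032), FAM13A (0.044), the adaptor gene SH2B2 (0.062), RNF223 (0.092) and RARA, a retinoic acid receptor (0.095). Nearest to DUSP4 were NIFK, which encodes a nucleolar protein (0.027), SPDL1, a mitotic spindle gene (0.029), FTSJ3, an RNA methyltransferase gene (0.031), RAB35, a small GTPase gene (0.031), and INHBA, a subunit of activin (0.034). With 3 libraries per condition this likeness rests mainly on a similar fold change between the conditions.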

How the data were processed

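RNA of SCC25 cells was extracted with a column kit and sequenced after library preparation with a SMARTER mRNA kit. The labels name SCC25, whereas the paper names another line of the same tumour type for this experiment. The authors deposited whole-number counts per gene, not normalized, and FPKM per gene. The FPKM of the 10 genes could be recomputed from the counts, the library totals and a whole-number gene length. The aligner, the counter, the annotation and the use of strand are not given in the sources used here. The submitters' processing notes name GRCm38 and mm10, which are mouse builds, although the table pairs human gene names with human Entrez numbers. No coordinates were taken from the files.

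Conditions came from the labels. Counts were tested over all genes with edgeR 4.0.16 in R 4.3.3 (filterByExpr, TMM, glmQLFit, glmQLFTest, condition as the only term, Benjamini-Hochberg adjustment at 0.05). The biological coefficient of variation was 0.0685. The standard error is the log2-fold change divided by the square root of F. Log2 CPM used a prior count of 2. log2(FPKM + 1) was tested with limma 3.58.1 for the 10976 genes whose mean reached 1 FPKM, a scale that understates changes of low genes. Both measures come from the same reads. Shares were compared by two-sided exact permutation tests. The fits were tested on simulated data in which 200 genes were changed, far fewer than in these data. There edgeR recovered 96 of 100 genes changed 1.5-fold and 100 of 100 changed 2-fold. False calls were 5.77% with edgeR, 3.125% with DESeq2 and 8.02% with limma on FPKM. The scaling was not tested by simulation with most genes changed. No pair of replicates agreed within sampling noise (chi-square per gene 4.90 to 10.8), so each library counted once. At these totals, genes with 3 or fewer counts have no measurable level.

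Named were the 10 genes, every further phosphatase and inhibitor listed, the 4 largest changes of each other list (adjusted p under 0.05, mean log2 CPM of at least 1, no overlap), 3 hypoxia genes and the 5 genes most like DUSP1 and like DUSP4. Of the ERK cascade list, 2 genes are not reported here. The members and lists were chosen with earlier results of these data known. Alternatives were DESeq2 size factors, the DESeq2 1.42.0 Wald test, no filter, at least 10 counts in every library, glmTreat against 1.2-fold, a block on replicate number, leaving out each library, an FPKM pseudocount of 0.1, no FPKM filter and shares of counts.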

Additional observations from a re-analysis of the deposited data

How the results depend on the processing

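The directions of all 10 log2-fold changes were kept under all 12 alternatives to the edgeR fit, and DUSP1 (2.10 to 2.23), DUSP4 (-1.42 to -1.30), SPRY1 (1.44 to 1.62), SPRY2 (-1.44 to -1.19) and SPRY4 (-1.34 to -1.12) passed the test in each. SPRED1 passed in 2 of the 12, and SPRED2 passed in 3, 1 of them the fit with no filter (-0.17, adjusted p = 0.0278 by edgeR). The fit with no filter shifted the log2-fold changes of all shared genes by a median of -0.041. Between 5 (glmTreat against 1.2-fold) and 8 (without normoxia library 3) of the 10 genes were called, 5 of them beyond a log2-fold change of 1 under every alternative, and 15 of 15 hypoxia response genes. All genes called ranged from 9003 of 14255 tested (glmTreat) to 11920 of 21776 (no filter), against 11090 of 14255 in the main fit. Without normoxia library 3 they were 11390 of 14719.

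Replicate numbers did not pair the libraries (correlations of same-numbered deviations 0.0047, -0.19 and -0.052). With the replicate number as a block, 6 feedback genes and 10875 of all 14255 genes tested were called. SPRED1 was no longer called (adjusted p = 0.0717), and by FPKM 6 were called instead of 7. By FPKM, leaving out a library gave 6 or 7, where the main FPKM fit called 80.9% of all genes tested on that scale.

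In shares of counts instead of FPKM, where long genes weigh more, the hypoxia minus normoxia difference was 15.4 percentage points for DUSP1 (24.4 by FPKM), -25.5 for DUSP4 (-21.3), 7.25 for SPRY1 (12.6), -6.10 for SPRY2 (-10.8), 6.32 for SPRED1 (4.36) and 5.38 for DUSP5 (0.225). It turned from -3.25 to 4.20 for DUSP6 and from -0.0077 to 0.515 for DUSP10. Leaving out a library gave -0.095 to 0.0398 for DUSP10, positive without hypoxia library 2 (0.0321), hypoxia library 3 (0.0398) or normoxia library 2 (0.0199). It gave -1.22 (without normoxia library 3) to 1.31 for DUSP5, where the full set gave 0.225. Leaving out a library gave 23.5 to 25.1 points for DUSP1 and -21.9 to -21.0 for DUSP4. Summed over the DUSP genes, hypoxia over normoxia was 0.95 by FPKM and 0.684 by CPM, and over the SPRY and SPRED genes 0.919 and 0.889, an alternative chosen after seeing the data. Depth limits the genes with few counts most, such as DUSP9, LRIG1 and DUSP19.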

Other observations

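The table held 11 further genes named DUSP, chosen after the values were seen, of which 9 were tested, 4 rose and 3 fell, where 77.8% of all genes tested passed. Most of these atypical phosphatases lack the kinase-binding domain of the MAP kinase phosphatases. DUSP14 fell from 2359, 1785 and 1702 counts in the normoxic libraries to 765, 735 and 777 in the hypoxic libraries (log2-fold change = -1.42 ± 0.081 SE, adjusted p = 4.45e-11 by edgeR). DUSP12 fell (-1.01 ± 0.081 SE), as did DUSP11, which acts on RNA (-0.64 ± 0.10 SE). DUSP3, known as VHR, rose (0.49 ± 0.053 SE), as did DUSP18 (0.56 ± 0.18 SE), DUSP19 (1.58 ± 0.49 SE, at 3 to 57 counts per library) and DUSP22 (0.58 ± 0.11 SE).

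The deposited annotation groups the genes in wider terms, which moved in both directions, as did all genes tested (39.2% higher, 38.5% lower). Of 11 genes with MAP kinase tyrosine/serine/threonine phosphatase activity, 5 of them among the 10 feedback genes, 5 rose and 4 fell. Of 62 genes annotated as negative regulators of the ERK cascade 51 were tested, of which 20 rose and 19 fell, with a median log2-fold change of -0.087. Of the 33 genes annotated as negative regulators of the MAPK cascade 31 were tested, of which 16 rose and 10 fell, with a median of 0.20. Of the 41 genes of the Reactome term for negative regulation of the MAPK pathway 12 rose and 22 fell, with a median of -0.29. Of 20 tested negative regulators of RAS signal transduction 7 rose and 10 fell, and of 12 tested negative regulators of fibroblast growth factor receptor signalling 5 rose and 5 fell.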
